A study of Mus musculus with 6 samples.

Results

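Replication-independent histone variants are histones whose genes lie outside the large histone clusters and whose supply is not tied to DNA synthesis in S phase. Their 10 genes were H2afx, H2afz, H2afv, H2afj, H2afy, H2afy2, H3f3a, H3f3b, H1f0 and Cenpa, chosen by name from a table of 43346 genes. All 10 passed the filter on low counts, which left 14000 genes. Expression was compared between primary fibroblasts of C57BL/6 mouse embryos (MEFs) that had received 3 µM erastin for 24 h and MEFs that had received the solvent DMSO, with 3 libraries in each group. Erastin blocks the cystine/glutamate antiporter and is used to induce ferroptosis, an iron-dependent death by lipid peroxidation. Both groups were at passage 9 and shared a growth medium with fetal bovine serum, nonessential amino acids, penicillin/streptomycin and 2-mercaptoethanol. The labels do not say whether the 3 libraries of a group came from separate embryos or cultures, so p-values measure the spread between these libraries, which may be technical.

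Nucleosomes are built from the core histones H2A, H2B, H3 and H4, and linker histone H1 binds the DNA between them. Most core histone protein is made in S phase from clustered, replication-dependent genes, whose mRNAs end in a conserved stem-loop instead of a poly(A) tail. Variant genes give polyadenylated mRNAs, and their proteins are placed by dedicated chaperones at promoters, damaged DNA, silent chromatin or centromeres. H2afx encodes H2AX, which is phosphorylated around DNA breaks, and is known for producing both a stem-loop mRNA and a polyadenylated mRNA.

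The stem-loop is shown first because it sets H2afx apart from the other variants by sequence. Transcripts were searched on the sense strand for GGNNCTT and AGNNCC set 3 bases apart, with 6 pairing stem positions (G-U pairs allowed) around a loop of 4 bases. Of the 10 variant genes, 1 held it, H2afx, against 44 of 64 clustered histone genes (68.8%) and 99 of 21901 protein-coding genes (0.452%). Only annotated transcripts were searched, so a gene whose annotation stops short of the mRNA's 3′ end shows no match. The share of clustered genes with a match is therefore not the share that has a stem-loop. In the H2afx transcript of 1384 bases the match began 49 bases after the last coding triplet, stop codon not counted, and 822 bases of transcript followed it. Below, the stem and loop are in capitals, beside those of the 3 clustered H2A genes with the highest counts that hold a match (GENCODE M21 transcripts, GRCm38, 5′ to 3′).
H2afx (chromosome 9, + strand): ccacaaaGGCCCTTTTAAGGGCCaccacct
Hist1h2ab (chromosome 13, + strand): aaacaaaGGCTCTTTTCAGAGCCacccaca
Hist2h2ac (chromosome 3, - strand): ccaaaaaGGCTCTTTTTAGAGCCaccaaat
Hist1h2ac (chromosome 13, - strand): acccaaaGGCTCTTTTCAGAGCCcccactt

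The genes of H3.3 and of H2A.Z form pairs with near-identical or identical proteins, and their coding sequences show how far reads of one can be told from the other. H3f3a and H3f3b both encode histone H3.3, from coding sequences of 408 bases of which 95 differ (76.7% identical), with no identical stretch over 23 bases. H2afz and H2afv encode the closely related H2A.Z proteins from 384 bases of which 80 differ (79.2% identical), with no identical stretch over 14 bases. The first 120 coding bases are shown with the bases that differ within a pair in capitals (GRCm38, 5′ to 3′ on the coding strand); 24 differ in the first pair and 28 in the second.
H3f3a (chromosome 1, - strand): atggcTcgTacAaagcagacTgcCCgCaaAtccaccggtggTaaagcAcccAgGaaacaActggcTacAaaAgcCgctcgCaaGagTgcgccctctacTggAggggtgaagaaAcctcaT
H3f3b (chromosome 11, - strand): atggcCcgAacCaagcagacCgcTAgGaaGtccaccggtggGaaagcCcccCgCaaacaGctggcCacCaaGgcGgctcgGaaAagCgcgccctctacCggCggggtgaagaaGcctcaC
H2afz (chromosome 3, + strand): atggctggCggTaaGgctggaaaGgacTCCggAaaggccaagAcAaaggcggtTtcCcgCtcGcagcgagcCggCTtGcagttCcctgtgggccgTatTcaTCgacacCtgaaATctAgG
H2afv (chromosome 11, - strand): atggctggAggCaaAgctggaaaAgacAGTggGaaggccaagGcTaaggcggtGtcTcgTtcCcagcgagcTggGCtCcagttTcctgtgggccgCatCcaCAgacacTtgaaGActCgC
Near-identical copies elsewhere in the genome are a second source of shared reads. At 95% identity or more over at least 150 bases, H3f3a had 17 annotated copies, of which the 8 in the table held 136 counts against 3435 for H3f3a itself. H3f3b had 3 copies, 2 of them in the table with 393 counts against 14159, and H2afz had 2, of which 1 was in the table with 171 counts against 4924. How the authors' counting treated reads matching several places is not given in the sources used here, so the levels of these 3 genes are uncertain by an amount that could not be measured.

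Total counts ran from 13333911 to 20509970 per library, and no pair of libraries agreed within sampling noise (chi-square per degree of freedom of at least 11 within groups). Of 9 fibroblast markers 8 were lower with erastin, their summed level being 28531 to 29719 CPM (counts scaled to library size with TMM factors) in DMSO and 16762 to 18724 CPM in erastin libraries. The 5 endothelial markers summed to 4.71 to 7.10 and 13.3 to 16.6 CPM, of which Tek and Kdr were tested and rose, by 1.45 and 1.38 (edgeR adjusted p = 0.00117 and 0.00172). Pecam1, Cdh5 and Tie1 had group means of at most 0.372 CPM, near the floor of 3 counts (0.14 to 0.234 CPM). Of 5 leukocyte markers 0 passed (2 had an unadjusted p-value under 0.05), at summed levels of 22.0 to 41.4 and 26.9 to 55.7 CPM. The 4 epithelial markers summed to at most 3.17 CPM, and of the 4 muscle markers (35.5 to 45.4 and 65.0 to 68.5 CPM) Des, a filament gene, made up nearly all and rose by 0.72 (edgeR adjusted p = 5.37e-05), while Myod1, Myog and Myh3 had group means of at most 0.297 CPM. No marker list was at 0 as a whole, and the part of these cell type markers in the results below was not tested. In bulk RNA, fewer cells of a type and less RNA per cell cannot be told apart.

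With erastin, 7 of the 10 variant genes fell, 0 rose and 3 did not pass the test (edgeR's quasi-likelihood test, Benjamini-Hochberg adjusted p-value under 0.05 over all 14000 genes). The median log2 fold change of the 10 was -0.57, beside -0.0014 for all genes tested. Of all genes tested 43.1% passed in either direction, 21.5% as lower and 21.6% as higher. No variant was higher at an unadjusted p-value under 0.05 or with DESeq2 either. The genes that fell were Cenpa, H2afx, H2afj, H2afy2, H1f0, H3f3a and H2afy, in order of size. With the GC and length offset H2afx (log2 difference -0.94) came after H2afy2 (-1.004) and H2afj (-0.99), and H3f3a (-0.65) before H1f0 (-0.53). H2afv, H2afz and H3f3b did not pass. In the same 7 genes all 3 erastin libraries lay under all 3 DMSO libraries, which held for 25.8% of genes tested (groups apart in either direction, 52.5%). The summed level of the 10 genes was 503 to 511 CPM in DMSO and 356 to 398 CPM in erastin libraries. The plot of expression by library shows each of these values.

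**Figure D1:**
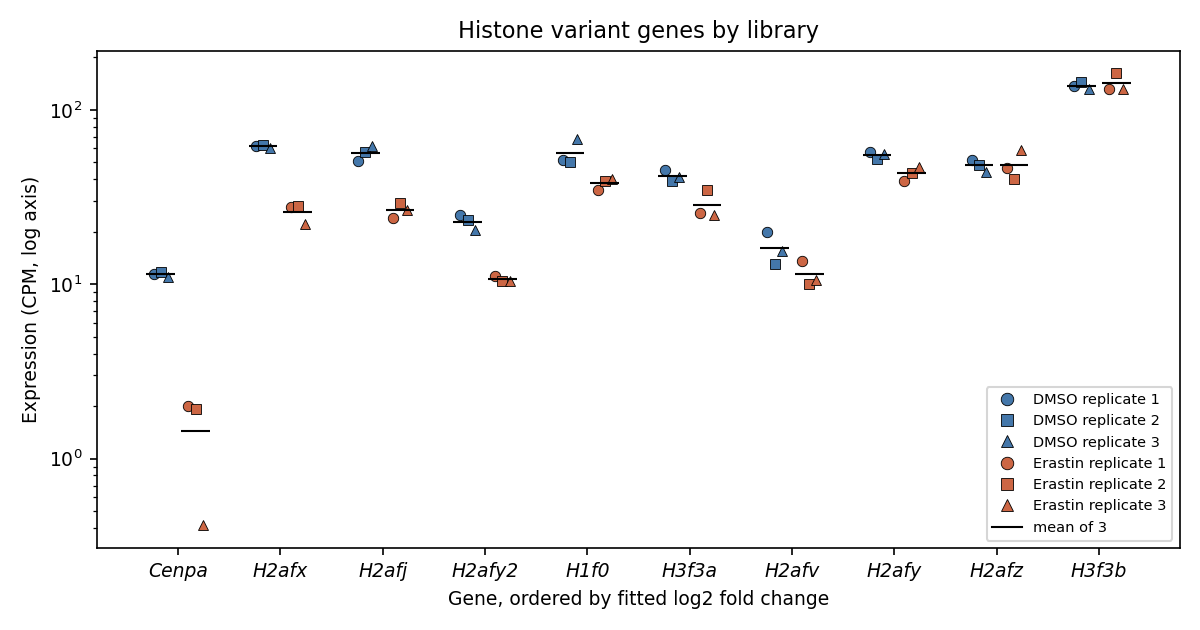
Expression of the 10 variant genes in CPM on a log axis, 1 point per library (blue DMSO, orange erastin, marker shape the replicate number) with a line at the mean of 3. Cenpa to H3f3a and H2afy have no overlap between the groups, while H2afv, H2afz and H3f3b do overlap.

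Among the H2A variants, H2afx (ENSMUSG00000049932.3, chr9:44334694-44336077, GRCm38) stood at 61.7, 63.0 and 60.7 CPM in DMSO replicates 1, 2 and 3 and at 27.6, 27.9 and 22.2 CPM in the erastin replicates. The DMSO libraries lay within a narrow band and far above every erastin library. H2afx fell by 1.26 on the log2 scale (SE 0.11, 95% interval -1.49 to -1.02, edgeR adjusted p = 3.89e-07), to 41.9% of its DMSO level. Counts are per gene, so the stem-loop and polyadenylated mRNAs of H2afx cannot be told apart in this change. H2afj (ENSMUSG00000060032.5, chr6:136808244-136810074) encodes H2A.J, a form close to replication-dependent H2A that has been linked to senescent fibroblasts. H2afj had 50.8, 57.3 and 61.7 CPM in DMSO and 23.8, 29.0 and 26.6 CPM in erastin libraries. Its groups were clear of each other, and it fell by 1.10 (SE 0.11, edgeR adjusted p = 2.13e-06), to 46.7% of DMSO. At 95% identity over at least 150 bases, H2afj had 0 annotated copies and H2afx had 1, with 12 counts against 4221.

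H2A.Z is found at promoters and enhancers and is exchanged into nucleosomes outside S phase. H2afz (ENSMUSG00000037894.9, chr3:137864487-137866922), its main gene, stood at 51.4, 48.5 and 44.0 CPM in DMSO and 46.6, 40.3 and 58.6 CPM in erastin libraries. The erastin libraries fell on both sides of the DMSO range. Its log2 difference was 0.017 with a 95% interval of -0.26 to 0.29 (edgeR adjusted p = 0.929), and its sign changed with upper-quartile scaling or when DMSO replicate 3 or erastin replicate 3 was left out. H2afv (ENSMUSG00000041126.12, chr11:6427229-6444443) encodes the second H2A.Z protein and had 19.9, 13.1 and 15.5 CPM in DMSO and 13.5, 10.0 and 10.6 CPM in erastin libraries. Erastin replicate 1 overlapped the DMSO range. The log2 difference of H2afv was -0.50 (SE 0.20, 95% interval -0.92 to -0.08, unadjusted for many genes) and did not pass (edgeR adjusted p = 0.0512); it passed in 8 of 15 alternative analyses, with adjusted p-values of 0.0261 to 0.241.

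The macroH2A variants carry a large extra domain and are concentrated in silent chromatin, including the inactive X chromosome. H2afy (ENSMUSG00000015937.10, chr13:56073619-56136361), for macroH2A1, had 57.5, 52.3 and 55.4 CPM in DMSO and 39.2, 43.2 and 47.2 CPM in erastin libraries. It fell by 0.35 (SE 0.10, edgeR adjusted p = 0.0113), the smallest of the 7 changes, and did not pass without erastin replicate 1 (log2 difference -0.28, edgeR adjusted p = 0.0707). H2afy2 (ENSMUSG00000020086.6, chr10:61738665-61784147), for macroH2A2, had 24.9, 23.2 and 20.3 CPM in DMSO and 11.2, 10.5 and 10.4 CPM in erastin libraries. The erastin libraries lay close together, at 46.9% of the DMSO level by the fit. H2afy2 fell by 1.09 (SE 0.15, edgeR adjusted p = 4e-05). Its annotated span shares 596 bases with Aifm2 on the opposite strand, which had 1473 counts over all 6 libraries against 1625 for H2afy2. Whether counting used the strand is not given in the sources used here.

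H3.3, the H3 form placed at active genes and regulatory elements by HIRA and in repeats and telomeres by DAXX and ATRX, is encoded by 2 genes. H3f3a (ENSMUSG00000060743.8, chr1:180800832-180813943) had 45.0, 39.1 and 41.2 CPM in DMSO and 25.5, 34.5 and 25.0 CPM in erastin libraries. Erastin replicate 2 lay nearest to DMSO but still below all 3 of its libraries. H3f3a fell by 0.56 (SE 0.13, edgeR adjusted p = 0.00332), to 67.8% of DMSO. Its antisense neighbour H3f3aos had 30 counts over all 6 libraries. H3f3b (ENSMUSG00000016559.10, chr11:116021912-116027962) had 137, 144 and 131 CPM in DMSO and 131, 162 and 131 CPM in erastin libraries. The groups overlapped, with erastin replicate 2 above all other libraries. Its log2 difference was 0.041 (95% interval -0.16 to 0.24, edgeR adjusted p = 0.751), with a sign that turned under upper-quartile scaling, the GC and length offset and without erastin replicate 2.

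Cenpa encodes CENP-A, the H3 variant that marks centromeres and is loaded after mitosis. Cenpa (ENSMUSG00000029177.5, chr5:30666777-30674830) showed the largest change of the 10, from 11.4, 11.8 and 11.0 CPM in DMSO to 2.00, 1.92 and 0.415 CPM in erastin libraries. The counts behind these were 151, 213 and 141 against 43, 32 and 8 reads, so erastin replicate 3 stood apart from the other erastin libraries at few reads. Cenpa fell by 2.98 (SE 0.39, 95% interval -3.80 to -2.15, edgeR adjusted p = 2.41e-05), and by 2.53 to 3.31 when 1 library was left out. Cell cycle markers moved with it. Among 10 such genes, 8 fell and 0 rose (none either with DESeq2 or unadjusted); the median was -2.80, and their summed level went from 352 to 383 CPM in DMSO to 118 to 130 CPM in erastin libraries. Those with the smallest p-values were Mki67 (log2 fold change -3.26), Top2a (-2.32) and Ccna2 (-2.87), with edgeR adjusted p-values of 1.9e-09, 7.73e-09 and 1.95e-08. Pcna and Mcm2, which act in DNA replication and were chosen after their values were seen, did not pass, at log2 differences of -0.24 and -0.0073. Their part in the change of Cenpa was not tested.

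Start regions are shown for Cenpa, which had the largest change, and for the 2 genes of H3.3, which encode 1 protein from unlike sequences. RefSeq promoters (GRCm38.p6) matched 9 of the 10 genes. The RefSeq starts used here differ from the GENCODE M21 starts. The H3f3a and H3f3b windows lie inside the GENCODE gene spans, and the Cenpa window crosses the GENCODE start. The windows run from 250 bases before the start to 30 after, and CCAAT and TTTGAA, searched on both strands, are in capitals; no matches overlap in the windows shown. Either strand held CCAAT in 36.1% of 32851 promoter windows of this length, TTTGAA in 17.2% and both in 6.4%. CCAAT is bound by NF-Y, and TTTGAA is a core form of the cell cycle homology region of genes expressed in G2 and M phase; a match is a description only.
Cenpa (chr5:30666636-30666915, + strand): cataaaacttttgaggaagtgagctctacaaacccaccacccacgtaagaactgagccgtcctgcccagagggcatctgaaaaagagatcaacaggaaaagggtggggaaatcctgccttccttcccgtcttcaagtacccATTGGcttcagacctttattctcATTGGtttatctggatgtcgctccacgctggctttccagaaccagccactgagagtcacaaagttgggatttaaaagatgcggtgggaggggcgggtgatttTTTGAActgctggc
H3f3a (chr1:180813576-180813855, - strand): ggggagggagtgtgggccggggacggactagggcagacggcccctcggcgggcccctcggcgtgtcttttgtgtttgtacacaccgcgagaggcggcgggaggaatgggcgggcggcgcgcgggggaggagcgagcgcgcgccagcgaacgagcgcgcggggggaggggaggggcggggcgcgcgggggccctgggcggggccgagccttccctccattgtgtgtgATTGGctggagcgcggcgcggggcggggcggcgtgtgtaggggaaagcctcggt
H3f3b (chr11:116024475-116024754, - strand): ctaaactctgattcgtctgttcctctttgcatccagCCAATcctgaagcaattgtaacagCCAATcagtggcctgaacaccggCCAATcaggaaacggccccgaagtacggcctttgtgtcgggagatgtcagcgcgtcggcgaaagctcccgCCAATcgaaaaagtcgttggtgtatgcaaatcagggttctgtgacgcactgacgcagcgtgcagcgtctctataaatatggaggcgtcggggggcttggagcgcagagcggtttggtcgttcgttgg
The Cenpa window held 2 CCAAT matches, at 109 and 86 bases before the start, and 1 TTTGAA match beginning at base 17 after it. The H3f3a window held 1 CCAAT match in sequence with 76.4% G and C, and the H3f3b window held 4 in sequence with 55% G and C. Among the other 6 windows, CCAAT was found in H2afz (3), H2afv (4) and H2afj (3), and TTTGAA in H2afv (1). The 3 genes that did not pass and 3 of the 6 that fell and had a window thus held CCAAT.

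Linker histone H1.0, from H1f0, accumulates in resting and differentiated cells. H1f0 (ENSMUSG00000096210.1, chr15:79028450-79030504) had 51.3, 50.05 and 67.7 CPM in DMSO and 34.8, 39.0 and 39.9 CPM in erastin libraries. DMSO replicate 3 lay above the other DMSO libraries, and all erastin libraries lay below them. H1f0 fell by 0.57 (SE 0.12, edgeR adjusted p = 0.00151), to 67.3% of DMSO, and by 0.42 to 0.65 when 1 library was left out.

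**Figure D2:**
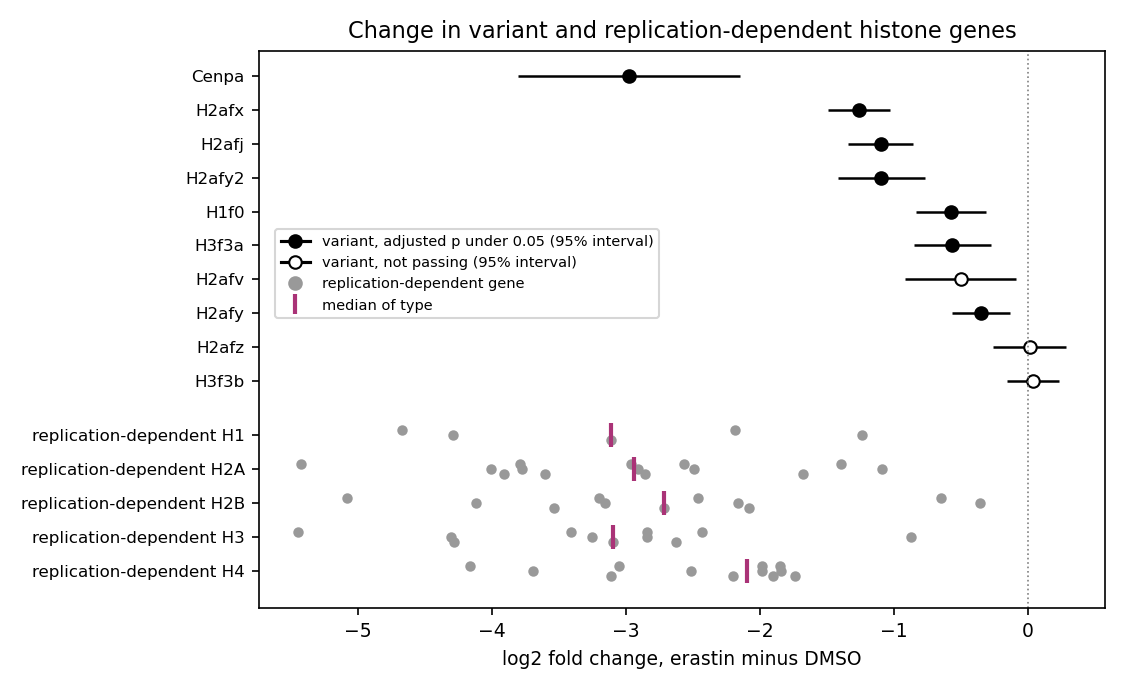
Log2 fold change (erastin minus DMSO) of the 10 variant genes with 95% intervals, filled where the adjusted p-value was under 0.05, above the replication-dependent histone genes of each type (grey points, with the median as a bar). Variants other than Cenpa lie between -1.26 and 0.041, and the medians of the 5 replication-dependent types lie between -3.11 and -2.09.

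Levels per length, taken as CPM per 1000 bases of the longest protein-coding transcript (RPKM), set the order of the variants within a group. In DMSO the order was H3f3b (54.7 ± 2.61 RPKM), H2afz (44.9 ± 3.49), H2afx (44.7 ± 0.837), H2afj (30.9 ± 3.01), H1f0 (27.4 ± 4.80), H2afy (26.9 ± 1.27), H3f3a (14.7 ± 1.05), H2afy2 (10.5 ± 1.06), H2afv (9.92 ± 2.12) and Cenpa (7.77 ± 0.284; SD, n = 3 each). Neighbours whose libraries overlapped were H2afz and H2afx, H2afj and H1f0, H1f0 and H2afy, H2afy2 and H2afv, and H2afv and Cenpa. With erastin H3f3b (56.3 ± 6.96 RPKM) and H2afz (45.4 ± 8.73) were again the highest and overlapped, and the third was H2afy (21.1 ± 1.96), whose libraries overlapped those of H2afx (18.7 ± 2.32) and above H2afj (14.5 ± 1.42). The place of some genes rests on the transcript chosen: with the second-longest coding transcript in place of the longest, H3f3a would be at 47.0 RPKM in DMSO in place of 14.7 and H2afj at 98.1 in place of 30.9. Likewise H2afz would be at 59.2, H3f3b at 69.0, H2afv at 31.2 and Cenpa at 30.9 RPKM.

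Ratios within a library do not depend on how libraries are scaled. H3f3a supplied 23.3% ± 1.75 of the counts of the 2 H3.3 genes under DMSO, against 16.6% ± 0.852 under erastin (SD, n = 3). The 3 erastin shares (16.3%, 17.6% and 16.0%) lay below the 3 DMSO shares (24.7%, 21.3% and 23.9%), and the log2 ratio of H3f3a to H3f3b differed by -0.61, erastin minus DMSO (exact permutation test, two-sided, p = 0.1, the smallest that 3 against 3 libraries allow). H2afy supplied 70.8% ± 2.12 of macroH2A counts in DMSO and 80.1% ± 2.08 with erastin (SD, n = 3), again without overlap, a log2 difference of 0.74 (exact permutation p = 0.1). For H2A.Z the share of H2afz was 74.9% ± 3.42 and 80.7% ± 3.64 (SD, n = 3), and the groups overlapped (log2 difference 0.50, exact permutation p = 0.2). Wilson 95% intervals of single libraries were within 3.11 percentage points of each share and cover counting error only. Adjusted over the 6 ratios tested here and in the next comparison, the exact p-values were 0.12 or, for H2A.Z, 0.2, so no ratio could pass 0.05 in this design.

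Variants were next set against the replication-dependent genes of their own type. The 61 such genes leave out the testis genes Hist1h1t, Hist1h2aa and Hist1h2ba, which were among the 64 of the stem-loop search. Of these 61 genes 53 passed the filter on low counts, of which 49 fell and 0 rose (edgeR, as above). The median log2 fold change of the 53 was -2.85. Among the variants 7 of 10 fell, with a median of -0.57. Summed counts of the 6 H2A variants were 1.93 ± 0.271 times those of replication-dependent H2A genes under DMSO and 9.76 ± 1.85 times under erastin (SD, n = 3). For H3, with H3f3a, H3f3b and Cenpa as variants, the ratio went from 0.828 ± 0.0725 to 6.06 ± 0.933, and for H1f0 over the clustered H1 genes from 0.102 ± 0.0151 to 0.297 ± 0.0164 (SD, n = 3). In each type all erastin libraries lay above all DMSO libraries, with log2 differences of 2.33, 2.86 and 1.55 for H2A, H3 and H1 (exact permutation p = 0.1 each). These are ratios of read counts, not of RNA molecules or protein, since variant mRNAs are longer and clustered genes share near-identical copies. With the median gene in place of the sum, the differences were 1.92 for H2A and 1.99 for H1.

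**Figure D3:**
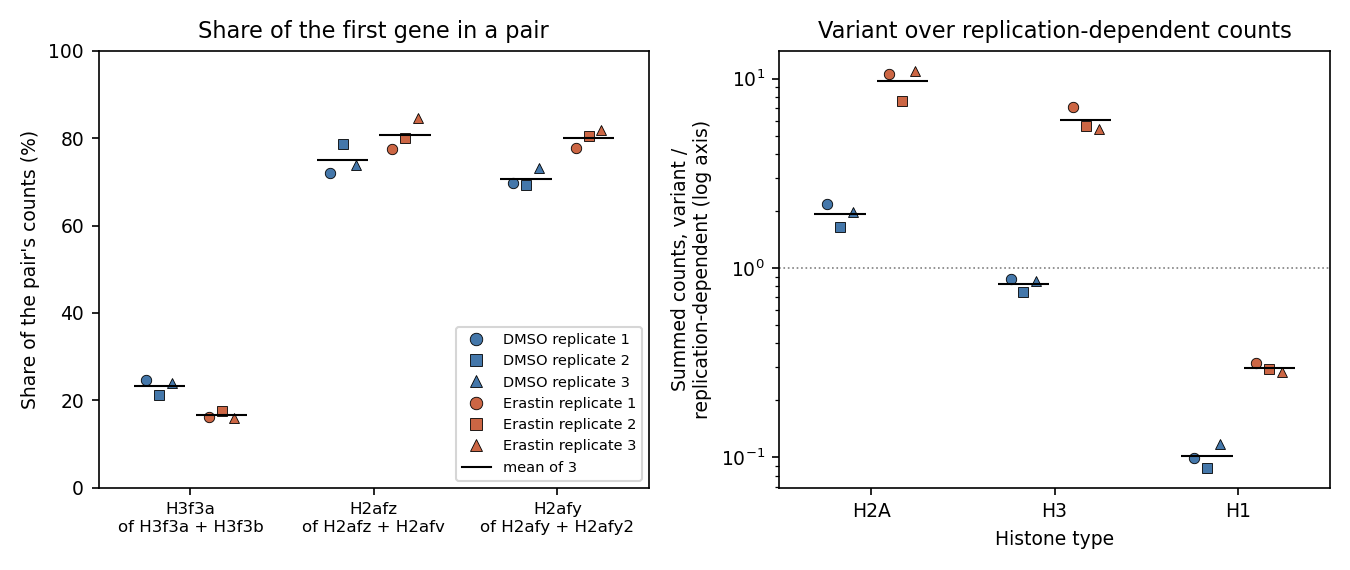
Left, the share of a pair's counts (%) that came from the first gene; right, summed counts of variants over those of replication-dependent genes of the same type, on a log axis. Points are libraries (blue DMSO, orange erastin) and lines are means of 3: the H3f3a share is lower with erastin, the H2afy share higher, and the right-hand ratios are higher in all 3 types.

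Genes that place or act on the variants were taken from lists chosen by function. Counts per list are to be read beside all genes tested, of which 21.5% passed as lower and 21.6% as higher. For H3.3, 0 of 7 deposition genes passed with edgeR or with DESeq2, and 1 had an unadjusted p-value under 0.05. Their median was 0.18. The HIRA complex genes Ubn2, Cabin1 and Ubn1 had the smallest p-values, at log2 differences of 0.30, 0.21 and 0.18 and edgeR adjusted p-values of 0.0946, 0.121 and 0.178. Of 11 H2A.Z exchange genes 3 rose and 1 fell, with a median of 0.13. Ruvbl2, an ATPase shared by several remodelling complexes, rose by 0.78, Dmap1 of the SRCAP and TIP60 complexes by 0.91, and Anp32e, which removes H2A.Z, by 0.50 (edgeR adjusted p = 7.12e-06, 0.000374 and 0.00118). The 1 that fell, named after its value was seen, was Znhit1 of the SRCAP complex, by 0.62 (edgeR adjusted p = 0.00595). Of 6 CENP-A loading genes 2 fell and 0 rose (0 also unadjusted or with DESeq2), the median being -0.46. Hjurp, the CENP-A chaperone, fell by 0.56, with group levels of 44.2 ± 1.48 and 30.1 ± 0.377 CPM (SD, n = 3, edgeR adjusted p = 0.000417), and Cenpn, which reads CENP-A nucleosomes, by 1.84 (edgeR adjusted p = 0.00268).

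Of 9 replication-coupled and general chaperones 2 rose and 2 fell, with a median of -0.16. Asf1b, the H3-H4 chaperone of proliferating cells, fell by 2.46 and Chaf1a, a subunit of the CAF-1 complex that follows the replication fork, by 1.09 (edgeR adjusted p = 0.000229 and 0.00074). Supt16, a subunit of the FACT complex that handles H2A-H2B, rose by 0.33, and Ssrp1, its partner in that complex and named after its value was seen, by 0.32 (edgeR adjusted p = 0.00332 and 0.00387). Of 8 genes for H2AX phosphorylation and its readers 1 rose (2 unadjusted) and 0 fell (also 0 unadjusted or with DESeq2), the median being 0.16. That 1 was Rnf168, a ubiquitin ligase acting after H2AX, by 0.52 (edgeR adjusted p = 0.0376), with 15.2 ± 3.31 CPM under DMSO and 21.8 ± 4.31 CPM under erastin (SD, n = 3). It did not pass with upper-quartile scaling, with the GC and length offset, or without DMSO replicate 1, erastin replicate 1 or erastin replicate 2. Baz1b and Trp53bp1 were at log2 differences of 0.17 and 0.23 (edgeR adjusted p = 0.0983 and 0.102). Of 8 genes for 3′ end processing of histone mRNA, Sympk and Npat rose by 0.40 and 0.31 and Lsm10 fell by 0.57 (edgeR adjusted p = 0.0043, 0.0266 and 0.0454), with a median of 0.20. Sympk is a scaffold of the cleavage complex and Lsm10 a U7 snRNP protein, while Npat is a coactivator of clustered histone genes, not a processing factor. Genes called processing genes from here on are those of this list, with Npat included. Only 1 of the 2 processing genes called higher was so with upper-quartile scaling, with the offset, or without DMSO replicate 3 or erastin replicate 2 or 3. Lsm10 did not pass with total count scaling, with the offset, or without DMSO replicate 1 or 3 or erastin replicate 1 or 2. Shares of genes passing in either direction in these lists are to be read beside the 43.1% of all genes tested.

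**Figure D4:**
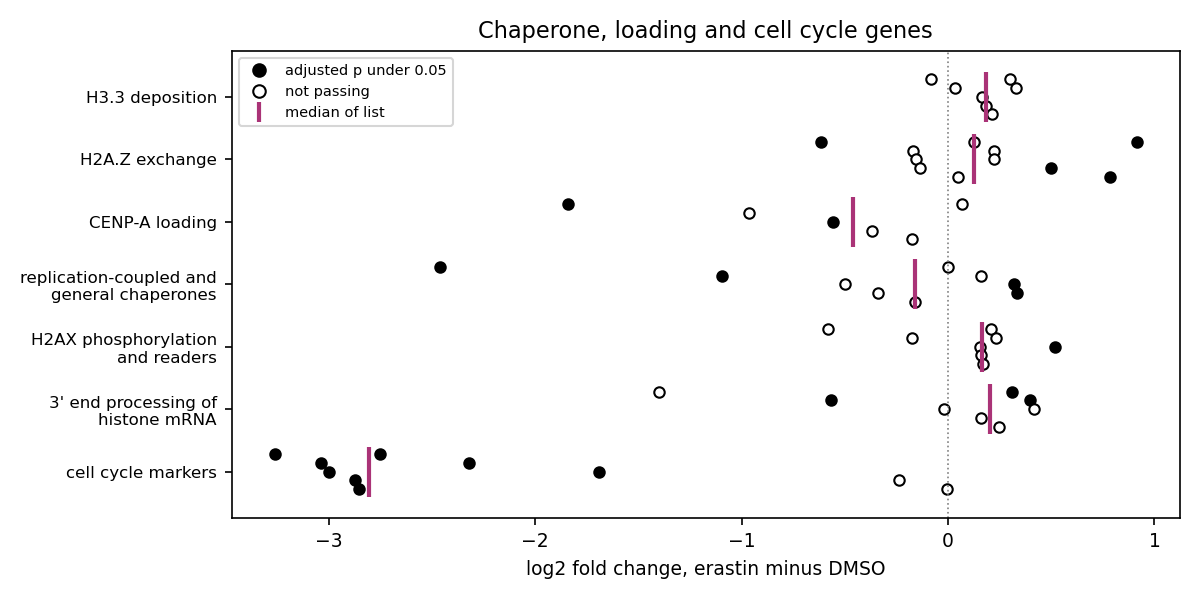
Log2 fold change (erastin minus DMSO) of the genes of 7 lists, 1 point per gene, filled where the adjusted p-value was under 0.05, with the median of each list as a bar. Cell cycle markers have a median of -2.80, with Pcna (-0.24) and Mcm2 (-0.0073) near 0, while the medians of the other 6 lists lie between -0.46 and 0.20.

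Other replication-independent or testis-specific histone genes were mostly silent. Of 12 listed, 4 had 0 reads in every library and 1 passed the filter on low counts, H1fx, the gene of linker histone H1x. It had 5.36, 8.04 and 3.04 CPM in DMSO and 2.70, 3.05 and 2.13 CPM in erastin libraries, so that the groups overlapped. H1fx fell by 1.07 (SE 0.37, edgeR adjusted p = 0.0308), which did not hold after the GC and length offset or without DMSO replicate 1 or 2 or erastin replicate 1 or 3.

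Cenpa, the variant with the largest change, was compared with all other genes tested by the Euclidean distance of log2(CPM + 0.5) centred on each gene's mean over the 6 libraries. The nearest were Ptgfr (distance 0.345), Fbxo5 (0.54) and Slfn9 (0.565), which encode a prostaglandin receptor, an inhibitor of the anaphase-promoting complex and a Schlafen family protein. Their log2 fold changes were -2.77, -3.35 and -2.69, and in each of them erastin replicate 3 was the lowest library, as it was for Cenpa. Both likenesses follow from how the 3 genes were picked and are not a separate result.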

How the data were processed

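RNA sequencing was done on rRNA-depleted total RNA from 3 DMSO and 3 erastin MEF libraries, on an Ion Proton instrument per the labels' protocols. The deposited table holds raw read counts per Ensembl gene, which the authors did not normalize; the submitters' processing notes name HTSeq 0.9.1, SAMtools and mm10, while the aligner, annotation and strand setting are not given in the sources used here. Identifiers were matched without version to GENCODE M21 (GRCm38, the assembly of mm10; 42462 of 43346 had a symbol), which also gave coordinates and lengths. Columns were matched to libraries by sample number; the number of library columns not used was 0.

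Counts were analysed with edgeR 4.0.16 in R 4.3.3: filterByExpr (minimum count 10 in 3 libraries, total 15), TMM factors and the quasi-likelihood test with treatment as the only term. The code was also run on simulated counts with few genes changed and 1 dispersion for all genes. That run does not calibrate p-values or TMM factors for these data, in which 43.1% of genes passed. Adjustment was by Benjamini-Hochberg over 14000 genes, with a threshold of 0.05; SEs come from the fitted weights. Ratios were compared by exact permutation over libraries. Copies were found with blastn 2.17.0. The floor of 3 counts covers counting error only. Alternatives were other scalings, filters, a replicate block, a GC and length offset (mgcv 1.9.3), DESeq2 1.42.0, a threshold of 0.01, medians in place of sums, added counts of copies, and leaving out each library.

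The variant genes and the gene lists (H3.3 deposition, H2A.Z exchange, CENP-A loading, replication-coupled and general chaperones, H2AX phosphorylation and readers, 3′ end processing, other variants, cell cycle and cell type markers) were chosen with earlier results of these data known. Genes named were every variant, the 3 lowest p-values in each list, and the 3 genes most like the variant with the largest change; others are said to be chosen after their values were seen, and 1 gene is not reported here. Both groups carry replicate numbers 1 to 3, but the labels tie them to no shared culture or day.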

Additional observations from a re-analysis of the deposited data

How the results depend on the processing

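The count of variant genes past the threshold was 7 or 8 in each of 15 alternative fits and 6, without H2afy, at an adjusted p-value under 0.01, with 0 higher in any. The 8 came from H2afv joining; without erastin replicate 1 it took the place of H2afy. H2afv passed with upper-quartile factors (log2 difference -0.55, adjusted p = 0.0323), at least 1 CPM in 3 libraries (-0.50, 0.0485), the GC and length offset (-0.51, 0.0429) and DESeq2 (-0.50, 0.0456). Signs turned for H2afz (-0.037) and H3f3b (-0.013) with upper-quartile factors and for H3f3b with the offset (-0.035); the all-gene median was -0.0014 with TMM, -0.055 with upper-quartile and 0.065 with total count scaling. Leaving out 1 library gave -0.14 to 0.13 for H2afz, -0.064 to 0.094 for H3f3b, -0.65 to -0.32 for H2afv and -0.42 to -0.28 for H2afy. Genes higher were 50.2% of those passing with TMM, 44% with upper-quartile and 57.1% with total count scaling.

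List counts are small. With upper-quartile factors 0 H2AX genes and 1 processing gene were higher; with total count scaling 2 H3.3 deposition and 3 H2AX genes were higher and 0 processing genes lower. The offset gave 1 H3.3 deposition gene, 0 H2AX genes and 1 processing gene higher, 4 chaperones, 0 processing genes and 0 other variants lower, and medians of -0.36 (chaperones), 0.0497 (H2AX) and 0.021 (processing). Leaving out 1 library gave 0 to 2 H3.3 deposition, 0 to 2 H2AX and 1 to 2 processing genes higher, 0 to 1 processing genes and 0 to 1 other variants lower, and medians of -0.57 to -0.39 for CENP-A loading and -2.87 to -2.70 for cell cycle markers. The median gene in place of the sum gave log2 ratio differences of 1.92 (H2A) and 1.99 (H1). Causes were not tested.

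With the replicate number as a block, H2afv passed (-0.50, adjusted p = 0.0303) and no other variant changed side; 5882 genes passed in place of 6028. Block and offset together gave H2afv -0.51 (0.0261), H3f3b -0.042, 1 H3.3 deposition, 0 H2AX and 1 processing gene higher, 5 chaperones and 0 other variants lower, and medians of -0.35, 0.051 and 0.023. Between libraries of equal number, deviations from group means correlated at 0.0601, 0.00344 and -0.0096 (mean 0.018, against -0.00879 for unequal numbers). Of 3 DMSO libraries 2 correlated best with their own number. With 3 libraries per group, these values cannot show whether equal numbers share a culture or day. Depth limits Cenpa most, with 8 reads in erastin replicate 3.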
